A study of Homo sapiens with 6 samples.

Results

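PRSS8, PRSS22, SPINT1 and SLPI encode a pair of epithelial serine proteases and a pair of inhibitors of serine proteases. They were taken by gene symbol as 4 of the 770 genes of a NanoString cancer progression panel. The panel was hybridized to RNA of HCT116 WT cells, a human colorectal carcinoma line, and of HCT116 p21-/- cells, its derivative with a disrupted CDKN1A gene, which encodes the cell cycle inhibitor p21, with 3 biological replicates of each line and no treatment. The deposited labels do not say how many knockout clones the p21-/- samples represent. Per the study's methods, WT cells came from a cell bank and the p21-/- line was a gift of another laboratory. Source, passage history and genotype therefore cannot be told apart. The labels give RPMI as the medium of both lines while the study's methods give DMEM for the p21-/- cells, so if the methods apply, medium and genotype cannot be told apart. The 4 genes were chosen with their values in these samples known, so their levels and fold changes are given as a description, with no test.

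Trypsin-like serine proteases at the surface of epithelial cells act in cascades, in which one protease cleaves and activates the next. Prostasin, encoded by PRSS8, is anchored to the membrane, works together with matriptase, encoded by ST14, and activates the epithelial sodium channel. PRSS22 encodes tryptase epsilon, a secreted protease of epithelia that can activate the zymogen of urokinase. Inhibitors of serine proteases include HAI-1, a membrane protein with Kunitz domains that is encoded by SPINT1 and blocks matriptase and hepatocyte growth factor activator. SLPI, a secreted protein of mucosal surfaces, inhibits the serine proteases neutrophil elastase and cathepsin G.

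Values are normalized counts, that is, barcode counts scaled by the authors between samples, and the lowest values of a sample stand at a floor of 25.7 to 34.9 that matches its negative controls. A count was listed above the floor when it exceeded this number both before and after scaling, which set detection limits of 44.9, 39.2 and 39.5 for replicates 1, 2 and 3 of WT cells and of 36.5, 25.7 and 31.4 for those of p21-/- cells, in normalized counts. CDKN1A had 4133 to 5659 normalized counts in WT and 388 to 460 in p21-/- samples. The samples held 867421 to 1335466 barcode counts over genes above the floor, with the lowest total in WT replicate 1. The positive controls, spiked into each sample, had geometric means of 1601 to 1861 counts in WT and 1102 to 1261 in p21-/- samples, and the part of this difference in the results below was not tested. Of the markers of the labelled cell type, EPCAM and KRT19 were far above the floor in all samples of both lines, whereas CDH1 was at 2254 to 2933 in WT and 271 to 294 in p21-/- samples. Of 8 fibroblast markers on the panel, COL1A1 was at 193 to 241 in WT and 60.2 to 65.8 in p21-/- samples and PDGFRB was at the floor in WT and at 43.7 to 55.0 in p21-/- samples, and 3 of 4 endothelial markers and the leukocyte markers PTPRC and ITGAM were at the floor in all samples. Over the panel, limma called 47.8% of the genes at an adjusted p below 0.05, 26% lower and 21.8% higher in p21-/- cells. Of the called genes, 45.7% were higher with the authors' scaling, 59.8% after median scaling, 58.0% after quantile normalization and 15.5% when scaled to 30 housekeeping candidates, where the calls included all 167 genes at the floor throughout as lower. These candidates were not level in the deposited values, with a geometric mean of 888 to 934 normalized counts in WT and 1188 to 1200 in p21-/- samples. All fold changes given are relative to the authors' scaling, and the direction of small ones depends on which genes are taken as level. The median log2 fold change was -0.12 over all 770 genes, which is the value of a gene at the floor throughout, and -0.05 over the 446 genes that never were.

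All 4 genes had lower values in p21-/- than in WT cells, with no overlap between the lines. Over the whole panel, 26.8% of the genes had all p21-/- values below all WT values, and since the genes were selected on this contrast nothing is read from their count. Of the 3 genes above the floor throughout, PRSS22 showed the largest difference, with a p21-/- mean at 18.4% of the WT mean. The corresponding share was 44.1% for PRSS8 and 67.2% for SPINT1. For SLPI it was 38.7%, which the floor limits, since replicates 1 and 3 of the p21-/- cells stood at it.

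**Figure D1:**
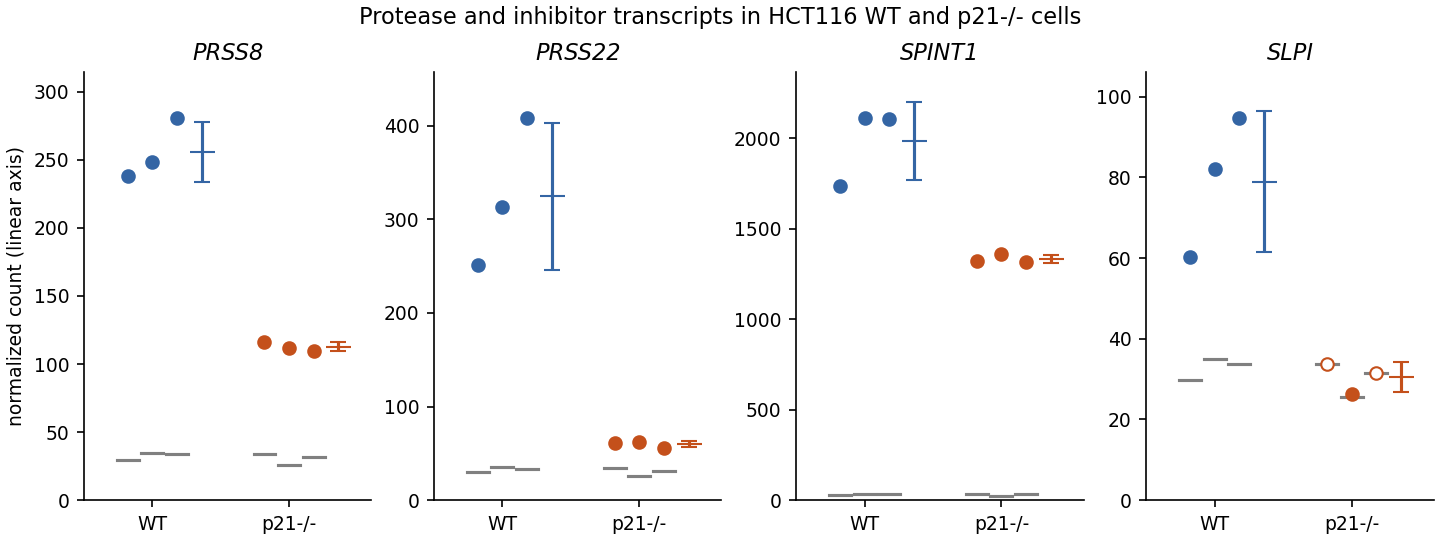
Normalized counts (linear axis from 0, one scale per gene) of PRSS8, PRSS22, SPINT1 and SLPI in each WT (blue) and p21-/- (orange) sample, replicates 1 to 3 from left to right, with the mean and SD of each line (n = 3) beside the points. Grey dashes mark the floor of each sample and open points are values at the floor. The p21-/- points of PRSS22 lie between 55.7 and 61.9, and those of SLPI lie on or just above the floor.

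Both proteases were above the floor in all 6 samples. PRSS8, encoding prostasin, was at 238, 248 and 281 normalized counts in replicates 1, 2 and 3 of WT cells, and at 117, 112 and 110 in those of p21-/- cells. The lowest WT value was 2.04-fold the highest p21-/- value, and all 6 values were at least 3.19-fold the detection limit of their sample. Its mean went from 256 ± 22.2 in WT to 113 ± 3.47 in p21-/- cells (SD, n = 3 each). This is a change of -1.17 on the log2 scale, with a standard error of 0.153.

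PRSS22, encoding tryptase epsilon, was at 252, 313 and 408 normalized counts in WT cells (replicates 1, 2 and 3), against 61.5, 61.9 and 55.7 in p21-/- cells. The WT samples were spread over a 1.62-fold range, whereas the p21-/- samples lay within a 1.11-fold range, and the lowest WT value was 4.07-fold the highest p21-/- value. Means of 324 ± 78.8 and 59.7 ± 3.44 (SD, n = 3 each) gave a change of -2.40 on the log2 scale (standard error 0.187), at rank 26 by size among the falls of the 770 genes. In p21-/- cells these values rest on 57, 68 and 63 barcode counts, with exact Poisson 95% intervals of 43.2 to 73.9, 52.8 to 86.2 and 48.4 to 80.6 that cover counting error only. The negative controls of the same samples reached 25 to 33 counts. PRSS22 thus stood at 1.68-fold to 2.41-fold the detection limit in p21-/- cells, and with the mean of the negative controls subtracted, an alternative chosen after seeing the data, its log2 fold change was -2.85.

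The inhibitors differed in how far they stood above the detection limit, and SPINT1 was at 36.2-fold or more of it in every sample. SPINT1, encoding HAI-1, reached 1736, 2112 and 2105 normalized counts in replicates 1, 2 and 3 of WT cells and 1323, 1361 and 1319 in those of p21-/- cells. WT replicate 1 was closest to the p21-/- samples, at 1.28-fold the highest of them. The log2 fold change of -0.57 (standard error 0.0961), from means of 1984 ± 215 and 1334 ± 23.0 (SD, n = 3 each), was the smallest of the 4 genes. It depended on the scaling between samples, and was -0.35 after median scaling and -0.95 when scaled to the housekeeping candidates.

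SPINT1 was the gene of the 4 with promoter sequence at hand, from RefSeq (GRCh38.p14), where it has 2 annotated start sites on the plus strand of chromosome 15. The 250 bases before each start were searched on both strands for CACCTG, which reads as CAGGTG on the opposite strand. These letters are the E-box core bound by the SNAI and ZEB repressors of epithelial genes. The window before the start at base 40844048 did not hold them, and the window before the start at base 40844477 held them 26 bases ahead of it. The 30 bases at chr15:40844439-40844468, plus strand, show this match with the E-box in capitals.
SPINT1, second start: tcccgggctgatCAGGTGtgtctcctcctc
Of 35116 such windows of all genes, 17.5% hold the motif, and of the 557 panel genes with promoter sequence, 24.6% hold it in at least 1 window. The match is a description, and binding was not examined.

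SLPI reached 60.3, 82.0 and 94.7 normalized counts in replicates 1, 2 and 3 of WT cells, beside 33.8, 26.4 and 31.4 in those of p21-/- cells. Replicates 1 and 3 of the p21-/- cells were at the floor, and replicate 2 was at 1.03-fold its detection limit with 29 barcode counts. SLPI was thus not distinguishable from background in p21-/- cells, and its WT replicates 1, 2 and 3 were at 1.34-fold, 2.09-fold and 2.40-fold the detection limit with 40, 73 and 81 barcode counts. Means of 79.0 ± 17.4 and 30.5 ± 3.80 (SD, n = 3 each) gave a log2 fold change of -1.33 (standard error 0.186), which the floor limits. After the same subtraction of the negative control mean, the log2 fold change of SLPI was -2.25 (standard error 0.343). This value also rests on the floor and is no estimate of the change, since floor values of p21-/- replicates 1 and 3 entered the subtraction.

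The genes also differed in how much they varied among WT replicates. WT replicate 1 had the lowest WT value of each of the 4 genes. On the log2 scale it lay 0.34 below the WT mean for PRSS22 and 0.36 below it for SLPI, 0.19 below it for SPINT1 and 0.10 below it for PRSS8, and WT replicate 1 had a median deviation of -0.09 over the 446 genes that exceeded the floor in each of the 6 samples. The SD of the log2 values between WT replicates was 0.35 for PRSS22, exceeded by 46 of those 446 genes, 0.12 for PRSS8 and 0.16 for SPINT1, beside a panel median of 0.16. In p21-/- cells it was 0.08 for PRSS22, 0.04 for PRSS8 and 0.02 for SPINT1, beside a panel median of 0.06. When single samples were left out, the log2 fold changes stayed between -1.22 and -1.10 for PRSS8, between -2.56 and -2.22 for PRSS22, between -0.66 and -0.52 for SPINT1 and between -1.51 and -1.18 for SLPI.

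Ratios between genes within a sample hardly move when all values of a sample are multiplied by one factor, as in median scaling or scaling to housekeeping candidates, but they do move with quantile normalization. They compare how the genes changed relative to each other, not numbers of molecules, because probes differ in efficiency. An inhibitor and a protease paired here need not be an inhibitor and its target. The ratios come from the same values as the fold changes and are likewise given without a test. The log2 ratio of SPINT1 over PRSS22 was 2.78, 2.75 and 2.36 in the WT samples and 4.40, 4.44 and 4.54 in the p21-/- samples (replicates 1, 2 and 3), so that the ratio was 3.55-fold higher on average in p21-/- cells. The lines did not overlap. The log2 ratio of SPINT1 over PRSS8 went from 2.95 ± 0.12 to 3.55 ± 0.05 (SD, n = 3 each), a 1.52-fold higher ratio, also with no overlap. After quantile normalization, an alternative added after seeing the data, this change was 0.36 instead of 0.60 on the log2 scale.

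The log2 ratio of SLPI over PRSS8 was -1.70 ± 0.23 in WT and -1.86 ± 0.16 in p21-/- cells (SD, n = 3 each), and the lines overlapped. As SLPI was at or next to the floor in p21-/- cells, the floor sets its value there, and no order of SLPI and PRSS8 by fold change is read from this overlap. With the negative control mean subtracted, the change of this log2 ratio was -0.93 instead of -0.15. For the same reason no direction is read for SLPI over PRSS22, whose log2 ratio differed by 1.07 in the deposited values and by 0.60 after this subtraction, since the floor caps SLPI from above. Between the proteases themselves, the log2 ratio of PRSS8 over PRSS22 went from -0.32 ± 0.23 to 0.91 ± 0.06 (SD, n = 3 each), with no overlap.

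**Figure D2:**
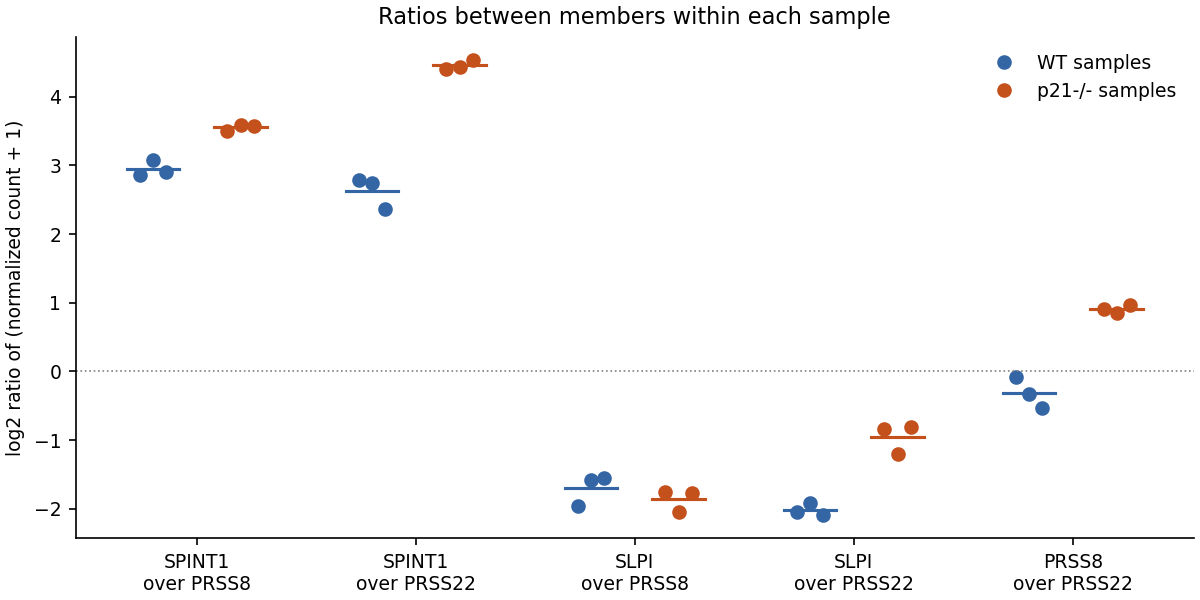
Log2 ratios of normalized counts (each plus 1) between the named genes within each WT (blue) and p21-/- (orange) sample, with horizontal lines at the mean of the 3 samples of a line. The ratio of SPINT1 over PRSS22 lies between 2.36 and 2.78 in WT and between 4.40 and 4.54 in p21-/- samples, whereas the p21-/- points of both SLPI ratios rest on SLPI values at or next to the floor.

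The panel held 10 further genes of a list of serine proteases, of which limma called 1 lower and 2 higher in p21-/- cells and 7 did not pass, beside 26% lower and 21.8% higher over the panel. Their median log2 fold change was -0.06, and 8 of the 10 were at the floor in some or all samples. Lower calls numbered 6 when scaled to the housekeeping candidates and 5 with the floor at its upper bound. Under these settings, 529 and 392 of the 770 panel genes were called lower, respectively. All protease genes added to the lower calls were at the floor in some or all samples. ST14, encoding matriptase, fell from a mean of 3406 ± 310 to 1774 ± 34.7 (SD, n = 3 each), a change of -0.94 on the log2 scale (standard error 0.0883, adjusted p = 1.88e-07). The log2 ratio of SPINT1 over ST14, the inhibitor over its main target, was -0.78 ± 0.20 in WT and -0.41 ± 0.04 in p21-/- cells (SD, n = 3 each), with no overlap. That of PRSS8 over ST14 went the other way, from -3.73 ± 0.08 to -3.96 ± 0.02 (SD, n = 3 each), also with no overlap. Ratios with ST14 were not run under the alternative settings. PLAU, encoding urokinase, rose from 6205 ± 1806 to 9389 ± 624 (SD, n = 3 each; log2 fold change 0.64, adjusted p = 0.00225), but its adjusted p was 0.149 when scaled to the housekeeping candidates and 0.0585 after quantile normalization. TMPRSS2, a membrane serine protease, did not exceed the floor in WT cells and reached 79.8, 58.2 and 69.9 in replicates 1, 2 and 3 of the knockout. This is at least 1.67-fold higher (limma, adjusted p = 5.49e-05, and 0.00128 with the floor at its upper bound). The protease genes that did not pass, TMPRSS4, TMPRSS6, KLK3, GZMK, CTSG, CMA1 and C1S, had values of 25.7 to 42.1 in all samples, at or close to the floor.

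Of 5 further genes in a list of serine protease inhibitors, limma called 2 lower in p21-/- cells, none higher, and 3 did not pass, beside 26% lower over the panel. SERPINA1, encoding alpha-1 antitrypsin, fell from 70.2 ± 16.3 to 38.2 ± 5.64 (SD, n = 3 each), with 1 p21-/- sample at the floor (log2 fold change -0.85, adjusted p = 0.00117). SERPING1, the complement C1 inhibitor, had 101 ± 27.4 and 111 ± 7.98 normalized counts (SD, n = 3 each), with overlapping lines (adjusted p = 0.521, and 0.0373 after quantile normalization). SPINK5 and TFPI2 were at the floor in all 6 samples.

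Of 7 genes for substrates and partners of these proteases, 4 were called lower and 1 higher in p21-/- cells, beside 26% and 21.8% over the panel. Their median log2 fold change was -0.81, also over the 5 of them above the floor throughout. SCNN1A, the alpha subunit of the epithelial sodium channel that prostasin activates, fell from a mean of 2616 ± 300 to 716 ± 111 (SD, n = 3 each), a change of -1.87 on the log2 scale (standard error 0.117, adjusted p = 1.19e-09). MET, the receptor for hepatocyte growth factor, and EGFR fell with log2 fold changes of -1.48 and -0.81 (adjusted p = 3.86e-10 and 1.72e-06), whereas HGF, the ligand of MET, was at the floor in all 6 samples. EPCAM, an epithelial adhesion molecule, rose by a log2 fold change of 0.22 (adjusted p = 0.0444), a call that held in 2 of the 6 fits that each left out a sample, and its log2 fold change was -0.17 when scaled to the housekeeping candidates. PLAUR, the urokinase receptor, had 659 ± 73.8 and 610 ± 43.2 normalized counts (SD, n = 3 each), with overlapping lines (adjusted p = 0.495). Scaled to the housekeeping candidates, PLAUR was called lower, at a log2 fold change of -0.49 (limma, adjusted p = 0.00264).

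**Figure D3:**
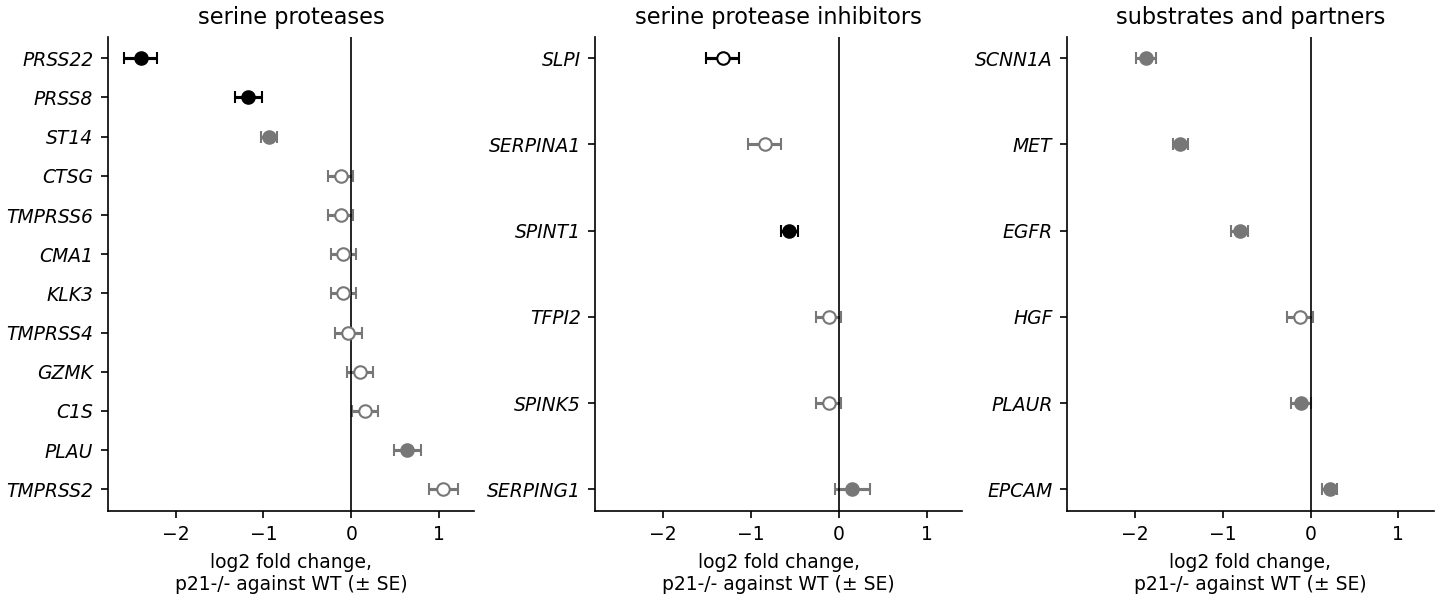
Log2 fold change (p21-/- against WT, ± standard error from limma) of panel genes in the lists of serine proteases, serine protease inhibitors and their substrates and partners. Black points are PRSS8, PRSS22, SPINT1 and SLPI, grey points are the other listed genes, and open points had at least 1 sample at the floor, so that their change is limited by it. PRSS22 lies lowest among the proteases at -2.40 and TMPRSS2 highest at 1.05.

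For each of the 4 genes, the 3 panel genes with the most similar profile were found among 524 genes above the floor in at least 3 samples, by the root mean squared difference of log2 values centred over the 6 samples. The difference in level between the lines makes up most of each profile, so likeness mainly reflects a fold change of similar size. Among the genes nearest to PRSS8 were ADAP1 at a root mean squared difference of 0.05 and MYO1D, an unconventional myosin, at 0.06. SPINT1 was nearest to STAT3 at 0.02, followed by AKAP2 and MTA1. PRSS22 was nearest to GSN, encoding the actin-severing protein gelsolin, at 0.14, followed by ADM2 and CLDN7, and PRSS22, GSN and ADM2 each had their highest value in WT replicate 3. SLPI was nearest to BMP7 at 0.06, followed by ITGB4 and B3GNT3, but its p21-/- values are at or next to the floor, which shapes its profile. Leaving SLPI aside, PRSS8 and SPINT1 were closest at 0.31 and PRSS22 and SPINT1 farthest apart at 0.93.

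**Figure D4:**
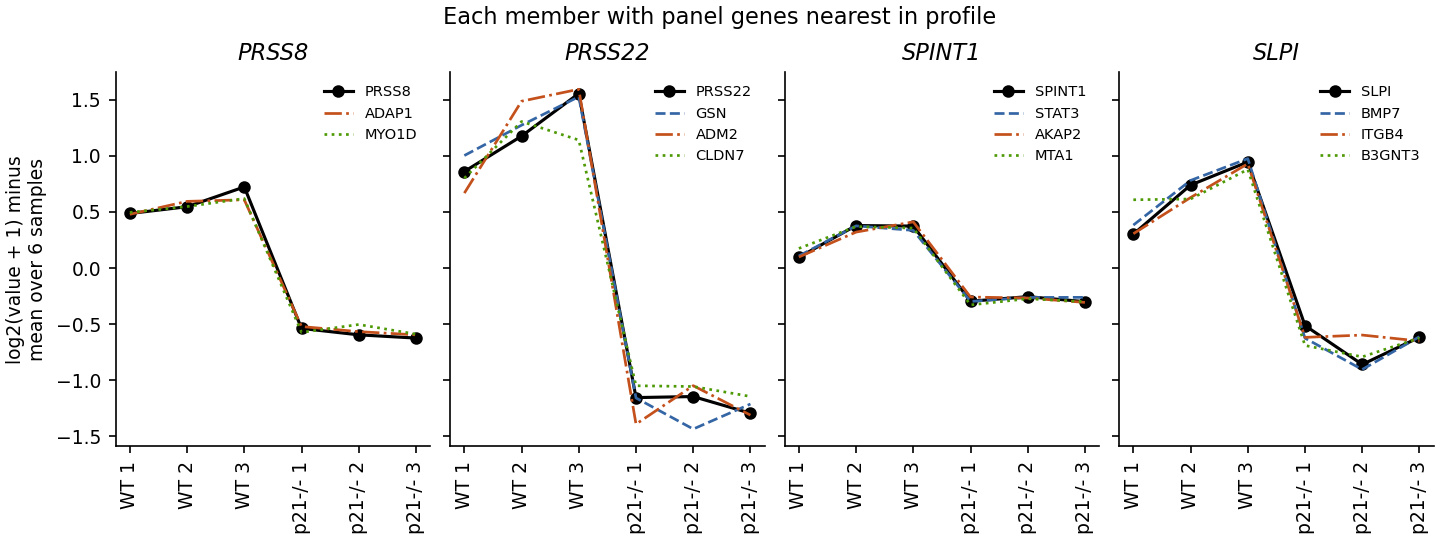
Log2(normalized count + 1) of PRSS8, PRSS22, SPINT1 and SLPI (black), centred on the mean over 6 samples, with panel genes nearest to each in profile (coloured lines, up to 3), by sample. Lines join samples for reading only, and replicates have no order. The step between WT and p21-/- samples is larger for PRSS22 than for PRSS8 and SPINT1, and that of SLPI is limited by the floor.

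In the order of protein-coding genes in RefSeq (GRCh38.p14), PRSS8 lies between KAT8 and PRSS36, PRSS22 between ZG16B and FLYWCH2, SPINT1 between PPP1R14D and RHOV, and SLPI between SEMG2 and MATN4. None of these neighbours was on the panel.

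**Figure D5:**
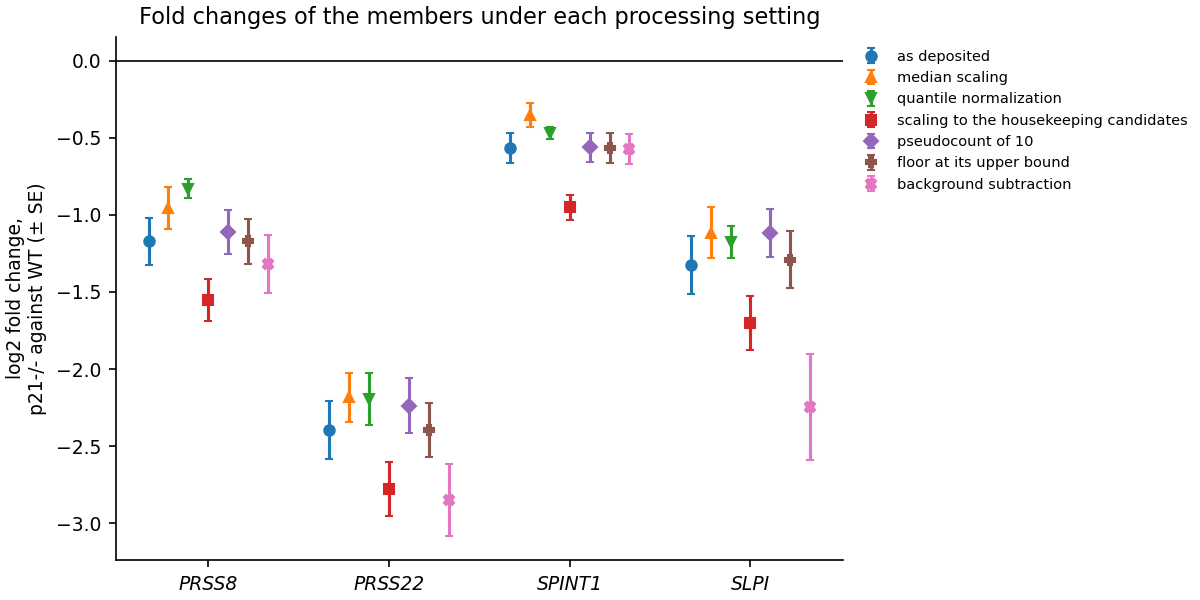
Log2 fold change (p21-/- against WT, ± standard error) of PRSS8, PRSS22, SPINT1 and SLPI with the values as deposited and under 6 other processing settings. All points lie below 0, those of SPINT1 between -0.95 and -0.35. The subtraction of background moves SLPI the most, to -2.25, a value that rests on floor values in p21-/- cells.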

How the data were processed

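The 3 WT and 3 p21-/- samples of HCT116 were assigned to their lines by title and genotype label. Per the labels, 100 ng of total RNA per sample was hybridized to the nCounter PanCancer Progression Panel. The authors deposited a normalized signal per gene, described as scaled in nSolver 3.0 by positive controls and by the geometric mean of 30 housekeeping genes. The 6 positive and 8 negative control entries are raw counts. Which 30 genes these were is not given in the sources used here, so how far they overlap with the 30 housekeeping candidates used below is unknown. Scaling to exactly these candidates would have given them an equal geometric mean in all samples. Theirs was 888 to 934 normalized counts in WT and 1188 to 1200 in p21-/- samples. Either the sets differ or the scaling was not as described, and which of these holds was not tested. The study's own test used raw counts and was not repeated. Barcode counts were recovered by a scaling factor per sample, read from values under 500 and above the floor, all of which were whole multiples of it within 0.1 count. The floor of a sample was its negative control mean with 2 SD added.

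Log2(value + 1) of 770 genes was fitted with limma 3.58.1 in R 4.3.3 (lmFit, eBayes with an intensity trend, no filter, Benjamini-Hochberg adjustment, two-sided), and the fit was tested on simulated data. A gene at the floor in a whole line is given as at least N-fold, taking as floor the higher of its scaled and unscaled value. The p-values set the difference between the 2 lines against the spread between biological replicates within a line, not between knockout clones. For a gene at the floor in a whole line, the spread within that line is the spread of the floors. The members and lists were chosen with earlier results of these data known. Named genes are the 4 members, up to 8 genes per list past the threshold without overlap, listed proteases and inhibitors that did not pass, and 3 nearest genes per member; some of these are not reported here. Alternatives were pseudocounts of 10 and 0.5, median scaling, quantile normalization, scaling to 30 housekeeping candidates, a floor at its upper bound, omission of genes at the floor throughout, an untrended prior variance, unmoderated linear models, a replicate block and the omission of each sample; background subtraction, and quantile normalization of the ratios, were added after seeing the data.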

Additional observations from a re-analysis of the deposited data

How the results depend on the processing

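PRSS8, PRSS22, SPINT1 and SLPI were lower in p21-/- cells under every setting run. Scaling to the housekeeping candidates, which moved the median log2 fold change of the 446 genes above the floor throughout from -0.05 to -0.43, gave log2 fold changes of -1.55 for PRSS8, -2.78 for PRSS22, -0.95 for SPINT1 and -1.70 for SLPI. Median scaling, with a median of 0.16, gave -0.96 for PRSS8 and -0.35 for SPINT1, and quantile normalization gave -0.83 for PRSS8. Background subtraction gave -1.32 for PRSS8, -2.85 for PRSS22 and -2.25 for SLPI. It also gave changes of the log2 ratios of 1.53 for PRSS8 over PRSS22, 0.60 for SLPI over PRSS22, -0.93 for SLPI over PRSS8, 2.28 for SPINT1 over PRSS22, 0.75 for SPINT1 over PRSS8 and 1.67 for SPINT1 over SLPI, and the last was 0.56 with a pseudocount of 10 and 0.76 with the pseudocount of 1. The change for SPINT1 over PRSS8 was 0.36 after quantile normalization, which was added for the ratios after seeing the data. The genes called over the panel numbered 368 as deposited, 626 when scaled to the housekeeping candidates and 560 with the floor at its upper bound. Under each of these last 2 settings, calls rose from 3 to 7 for the other serine proteases and from 2 to 4 for the other inhibitors. All 167 genes at the floor throughout were then called lower, SPINK5 and TFPI2 among them, because these settings give the floor itself a difference between the lines, so the calls of these 167 genes measure no transcript. The replicate number as a block gave 363 genes, and deviations from the line means correlated at 0.08, -0.05 and 0.05 between samples of equal number. With 3 samples per line this cannot show whether such samples were processed together, and the titles do not say so. Low values are limited by the floor, which bounds SLPI in p21-/- cells, also after background subtraction.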

Other observations

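Of 12 panel genes in a list of transcription and splicing regulators of the epithelial state, limma called 5 lower and 3 higher in p21-/- cells and 4 did not pass, beside 26% lower and 21.8% higher over the panel. Their median log2 fold change was -0.16, beside -0.12 over all 770 genes. Over the 7 above the floor throughout it was -0.43, beside -0.05 over all 446 such genes. The list mixes regulators that favour and that oppose the epithelial state, so no direction of that state is read from these medians. The regulators called lower numbered 8 when scaled to the housekeeping candidates and 7 with the floor at its upper bound, with 3 called higher each time. Over the panel, 529 and 392 of the 770 genes were called lower under these settings. Both counts of regulators include ZEB2 and TWIST2, which were at the floor in all 6 samples. Among those lower were GRHL2, a transcription factor of epithelial barrier genes, which fell from a mean of 258 ± 17.4 to 39.1 ± 6.67 (SD, n = 3 each, adjusted p = 2.38e-09) with 1 p21-/- sample at the floor, and ESRP1, an epithelial splicing regulator, which fell from 9433 ± 706 to 2730 ± 165 (SD, n = 3 each, adjusted p = 5.4e-11). ELF3, an epithelial ETS factor, fell by 3.32 on the log2 scale and TWIST1 by 1.00. OVOL2, a repressor of mesenchymal genes, rose from a mean of 149 ± 19.8 to 564 ± 27.3 (SD, n = 3 each, log2 fold change 1.92, adjusted p = 1.06e-08), alongside SNAI2, which was at least 11.5-fold higher, and ZEB1 with a log2 fold change of 1.16. SNAI3 was called lower (log2 fold change -0.43, adjusted p = 0.0407) but lost the call in each of the 6 fits that left out a sample. SNAI1 had 245 ± 41.5 and 212 ± 12.2 normalized counts (SD, n = 3 each), with an adjusted p of 0.392 and overlapping lines, and was called lower when scaled to the housekeeping candidates (log2 fold change -0.58, adjusted p = 0.00406).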
